A study of Mus musculus with 15 samples.

Results

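Sorted tumor cells with a high and with a low Lrig1 reporter signal were compared by RNA sequencing, to see how their transcriptomes differ. Samples were taken by their titles. The comparison holds 6 of the 15 libraries of the series, 3 labelled tumor Lrig1-high (S04, S08 and S12) and 3 labelled tumor Lrig1-low (S03, S07 and S11). A further library labelled tumor Lrig1-low, S15, held 357 counts in 47 genes and was left out. All groups share 1 genotype: mice carried an Lrig1-eGFP-IRES-CreERT2 reporter allele, in which green fluorescent protein reports Lrig1, together with the APCmin allele, a truncating mutation of the tumor suppressor Apc that causes intestinal tumors. No agent, age or sex is given in the labels, and neither the number of animals nor their pooling. Tumors were cut free and minced, cells were released with EDTA, TrypLE and dispase, and Epcam+ cells without CD45 and CD31 were sorted by eGFP. The other 8 libraries with reads, 4 Lrig1-high and 4 Lrig1-low from normal epithelium of the same cross, entered the fit and the comparison of the 2 tissues.

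Lrig1 is a membrane protein with leucine-rich repeats and immunoglobulin domains that binds ErbB receptors and promotes their degradation. In the intestine it is present in crypt base stem and progenitor cells, which Wnt ligands keep dividing and whose progeny become enterocytes or the secretory goblet, Paneth, enteroendocrine and tuft cells. Loss of Apc frees beta-catenin from degradation, so that Wnt target genes are transcribed without a ligand. In such bulk samples, fewer cells of a type and less RNA per cell cannot be told apart.

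The 6 tumor libraries held 9508505 to 14763356 counts. S12 stood apart: genes of the mitochondrial genome took 49.5% of its counts, against 14.1% to 23.7% in the others. It had 11995 genes with a count and S08 had 12900, against 15006 to 16425 in the other 4. In addition, 18 genes had at least 1000 CPM (counts per 1000000, with library sizes scaled by edgeR's TMM factors) in 1 tumor library and at least 10 times the level of every other one: 11 in S03, 4 in S04 and 3 in S11. These single-library peaks, a criterion set after values were seen, took 6.01% of the scaled counts of S03 and 3.09% of those of S04. Of the sort markers, Epcam ranged from 605 to 1396 CPM and the CD31 gene Pecam1 did not exceed 1.11 CPM. The CD45 gene Ptprc reached 46.1 CPM in S08 and did not exceed 7.46 CPM in the other 5. Some defining colon genes, named after their values were seen, were near 0 in tissue labelled colon. Car1, a carbonic anhydrase of colonocytes, was at 0.222 CPM or less, Aqp8 at 4.93 CPM or less, and Hoxb13 and Hoxd13, of the hindgut, at 0 in all 6. Other genes of colonocytes were present. The colonocyte list, 15 genes of which 13 were tested, summed to 499 to 1047 CPM, with the keratin gene Krt20 its highest member by mean. Its member Ces1d was at 3.47 to 22.2 CPM. The small intestinal genes Apob and Gata4 were at 409 to 1316 and 80.5 to 109 CPM. The colon is named here by the labels only.

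Lrig1 itself (gene 16206, chromosome 6, 94604529 to 94700145, mm10) did not follow the labels in every library. It was at 53.2, 142 and 43.03 CPM in S03, S07 and S11 and at 148, 55.7 and 72.5 CPM in S04, S08 and S12. The Lrig1-low library S07 lay just under S04, the highest, and the library labelled Lrig1-high S08 lay next to S03, so the groups overlapped. The group means were 92.1 ± 49.3 CPM in tumor Lrig1-high and 79.3 ± 54.3 CPM in tumor Lrig1-low (SD, n = 3 each). The log2 fold change of high over low was 0.22 ± 0.54 (SE, edgeR quasi-likelihood test, adjusted p = 0.933), and the exact permutation p (two-sided, over log2 CPM) was 0.5, where 3 against 3 libraries allow 0.1 at the smallest. Without S04 the log2 fold change was -0.31 and without S11 it was -0.08. It was 0.94 without S07, 1.20 without S07 and S08 (adjusted p = 0.348 in edgeR) and 1.63 without S07, S08 and S12. S07 and S08 were picked by their Lrig1 levels, so the values without them are no independent evidence. Every direction below rests on the labels as deposited, and S07 and S08 are to be read as the library labelled Lrig1-low and the library labelled Lrig1-high.

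Slc12a2, Smoc2 and Ube2c also ran across the labels, with the library labelled Lrig1-low S07 near S04 and S12 and the library labelled Lrig1-high S08 near S03 and S11. Slc12a2, the basolateral sodium, potassium and chloride cotransporter of crypt cells, was at 388, 1861 and 447 CPM in S03, S07 and S11 and at 2259.8, 309 and 1896 CPM in S04, S08 and S12. Smoc2, a secreted calcium-binding protein of crypt base stem cells, was at 65.3, 237 and 48.8 CPM in S03, S07 and S11 and at 205, 35.9 and 182 CPM in S04, S08 and S12. Ube2c, the ubiquitin-conjugating enzyme of the anaphase-promoting complex (gene 68612, chromosome 2, 164769929 to 164772902), was at 18.02, 90.2 and 11.03 CPM in S03, S07 and S11 and at 74.9, 19.4 and 97.1 CPM in S04, S08 and S12. In each of the 3 genes S08 was below S07 and the groups as labelled overlapped. The log2 fold changes of high over low were 0.73 ± 0.94 for Slc12a2, 0.27 ± 0.78 for Smoc2 and 0.68 ± 0.78 for Ube2c (SE, adjusted p = 0.861, 0.947 and 0.834). Exact permutation tests gave p = 0.8, 1 and 0.4, and all 4 values, with Lrig1, were 1 after Benjamini-Hochberg adjustment over the 4 genes. The sign of the Smoc2 fold change rested on single libraries, with -0.01 without S03 and -0.10 without S04 or without S11. The fold change of Slc12a2 went from 0.29 without S04 to 1.84 without S07, and that of Ube2c from 0.24 without S11 to 2.14 without S07.

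**Figure D1:**
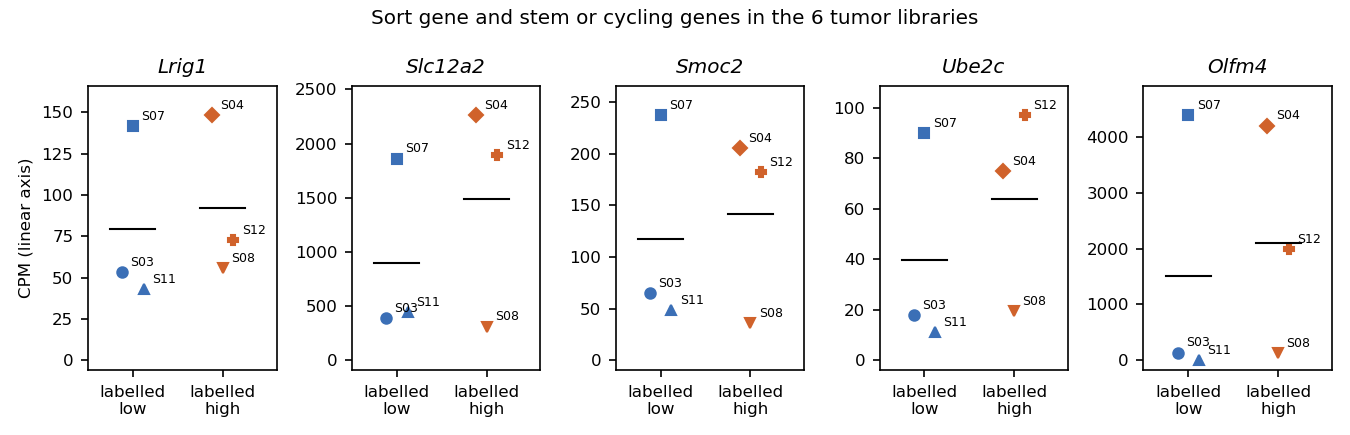
CPM on a linear axis of Lrig1, Slc12a2, Smoc2, Ube2c and Olfm4 in each of the 6 tumor libraries, by Lrig1 label, with 1 point per library and a bar at the mean of the 3 libraries. S07, labelled low, lies with or above S04 and S12, and S08, labelled high, lies near S03 and S11; Lrig1 of S12, at 72.5 CPM, is nearer the lower libraries.

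The wider list of stem cell genes, 23 genes of the crypt base, varied in a similar way. Its mean log2(CPM + 1) was 5.69, 7.102 and 5.97 in S03, S07 and S11 and 6.93, 5.45 and 6.598 in S04, S08 and S12. Olfm4, a secreted glycoprotein of crypt base columnar cells, was at 137, 4390.3 and 7.11 CPM in S03, S07 and S11 and at 4208, 125 and 1997 CPM in S04, S08 and S12, so that S04 and S07 stood far above S03, S08 and S11. Cdo1, cysteine dioxygenase, was at 8.17, 36.7 and 7.18 CPM in S03, S07 and S11 and at 42.2, 19.3 and 46.8 CPM in S04, S08 and S12. Lgr5, the R-spondin receptor that marks these cells, named here after its values were seen, departed from the pattern: it was at 45.2, 109.6 and 114 CPM in S03, S07 and S11 and at 121, 33.7 and 265 CPM in S04, S08 and S12, with S11 level with S07. Sox9, a transcription factor of crypt cells, was at 188, 329.9 and 363 CPM in S03, S07 and S11 and at 262, 154 and 132 CPM in S04, S08 and S12 (log2 fold change -0.68 ± 0.41, SE). Ephb3, a receptor that positions cells in the crypt, was at 56.2, 84.6 and 115 CPM in S03, S07 and S11 and at 65.2, 31.2 and 28.98 CPM in S04, S08 and S12 (-1.03 ± 0.66). Both had their highest level in S11, unlike Olfm4. Of the 23 genes, 13 had a positive and 10 a negative log2 fold change, none passed the test in either direction, and the median was 0.03, against -0.06 over all 13883 genes tested. The highest value of the 6 libraries was in S07 for 9 stem cell genes and in S08 for 0, and the lowest was in S08 for 9. The list's median went from -0.45 to 0.92 over all libraries and 26 alternatives, and was 0.86 without S07 and S08. Those 2 libraries were picked by their Lrig1 and stem cell gene levels, so a value without them is no independent evidence for these genes or for the division, Paneth and tuft cell genes that go with them.

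Genes of the dividing cell were high in S04 and S07, which carry opposite labels. Cells in division transcribe replication genes in S phase and mitotic genes in G2 and M, many of the latter from promoters with CCAAT boxes and a cell cycle homology region, known by the letters TTTGAA. The upstream sequences of Ube2c and Cdca3, an F-box-like regulator of mitotic entry, are shown as examples of genes that moved together across the 6 libraries, and that of Lrig1 because the sort used it. Ube2c and Cdca3 were high in S04 and S07 but highest in S12. In this they were unlike most of the mitosis list, where S12 held the highest value of 3 of 28 genes and the lowest of 9. Each runs from 250 bases before to 50 bases after the gene's start, 5′ to 3′ along the gene (RefSeq, GRCm38.p6). Capitals mark TTTGAA or CCAAT on either strand (TTCAAA and ATTGG on the strand shown), and CCAATTGG holds 2 overlapping matches of the second motif.
Ube2c, chr2:164769679-164769978, plus strand: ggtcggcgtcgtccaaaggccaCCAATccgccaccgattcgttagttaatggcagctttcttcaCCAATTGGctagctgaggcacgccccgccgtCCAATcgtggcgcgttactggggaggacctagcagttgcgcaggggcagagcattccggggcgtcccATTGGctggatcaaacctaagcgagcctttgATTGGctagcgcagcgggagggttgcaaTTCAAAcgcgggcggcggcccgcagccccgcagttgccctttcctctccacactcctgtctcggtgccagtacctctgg
Cdca3, chr6:124829926-124830225, plus strand: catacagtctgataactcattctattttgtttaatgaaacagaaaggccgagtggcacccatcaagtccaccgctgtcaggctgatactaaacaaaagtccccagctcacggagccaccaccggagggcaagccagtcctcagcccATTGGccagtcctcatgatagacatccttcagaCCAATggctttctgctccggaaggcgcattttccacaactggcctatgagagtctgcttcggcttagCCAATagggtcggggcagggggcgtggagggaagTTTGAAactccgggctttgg
Lrig1, chr6:94700096-94700395, minus strand: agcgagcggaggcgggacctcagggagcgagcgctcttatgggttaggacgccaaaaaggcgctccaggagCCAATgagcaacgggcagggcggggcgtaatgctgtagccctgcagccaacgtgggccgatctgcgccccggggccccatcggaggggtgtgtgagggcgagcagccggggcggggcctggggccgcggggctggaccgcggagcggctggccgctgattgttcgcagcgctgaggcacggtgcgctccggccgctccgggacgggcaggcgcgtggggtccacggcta
The Ube2c sequence held 1 TTTGAA match and 6 CCAAT matches, that of Cdca3 held 1 and 3, and that of Lrig1 held 0 and 1. TTTGAA was in 17.9% and CCAAT in 37.4% of the 32851 sequences of this length in the RefSeq table. Of the 25 sequences of 24 matched genes on the mitosis list, 19 held TTTGAA and 22 held CCAAT. A match of letters is a description of the sequence and not a measured site.

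The mitosis list, 28 genes, had a mean log2(CPM + 1) of 4.94, 6.48 and 4.700 in S03, S07 and S11 and 6.34, 4.95 and 5.08 in S04, S08 and S12. The highest value of a gene was in S07 for 18 of them, in S04 for 7 and in S12 for 3. Cdca3 was at 35.98, 65.5 and 29.4 CPM in S03, S07 and S11 and at 65.9, 41.4 and 74.8 CPM in S04, S08 and S12 (log2 fold change of high over low 0.48 ± 0.38, SE). Ccna2, cyclin A2, was at 61.4, 161 and 47.03 CPM in S03, S07 and S11 and at 169, 87.2 and 140.1 CPM in S04, S08 and S12 (0.56 ± 0.56). Mki67, the proliferation antigen Ki-67, was at 495, 1431 and 361 CPM in S03, S07 and S11 and at 1286, 606 and 520.4 CPM in S04, S08 and S12, so that S04 and S07 were more than 2 times every other library. Mad2l1, of the spindle checkpoint, was the member on the list without overlap between the groups, at 16.1, 26.4 and 22.5 CPM in S03, S07 and S11 and at 28.1, 28.7 and 38.8 CPM in S04, S08 and S12 (0.56 ± 0.41, unadjusted p = 0.196). It was 1 of 28, where 2.22% of all genes were higher without overlap. None of the mitosis genes passed the test, 17 log2 fold changes were positive and 11 negative, and their median was 0.08 (-0.36 to 1.51 over the alternatives).

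DNA replication genes, 28 in number, had a mean log2(CPM + 1) of 4.55, 5.56 and 4.39 in S03, S07 and S11 and 5.73, 4.36 and 4.45 in S04, S08 and S12. Here S12 lay with S03, S08 and S11, below S04 and S07, as it did for the mitosis genes. Mcm6, a subunit of the replicative helicase, was at 82.8, 216 and 67.7 CPM in S03, S07 and S11 and at 251, 66.6 and 101 CPM in S04, S08 and S12. Some members were nevertheless highest in S12. E2f1, the S phase transcription factor, was at 3.24, 7.53 and 2.89 CPM in S03, S07 and S11 and at 11.2, 3.65 and 19.5 CPM in S04, S08 and S12 (log2 fold change 1.32 ± 0.77, SE). Gins1, a subunit of the GINS helicase complex, did not overlap between groups, at 4.08, 6.73 and 4.96 CPM in S03, S07 and S11 and at 10.1, 10.7 and 26.4 CPM in S04, S08 and S12 (1.58 ± 0.74). This was 1 member of 28, against 2.22% of all genes higher without overlap. The list had 13 positive and 15 negative log2 fold changes and a median of -0.03 (-0.54 to 1.31 over the alternatives), and no member passed the test. The replication-dependent histone genes, which encode the histones of S phase in near-identical copies so that single members are uncertain, were highest in S04 for 24 of 32. H3c2 was at 23.7, 103 and 9.998 CPM in S03, S07 and S11 and at 112, 19.98 and 178 CPM in S04, S08 and S12. H1f2 was at 257, 483 and 235 CPM in S03, S07 and S11 and at 802, 231 and 109.96 CPM in S04, S08 and S12. The mean of the histone list was 3.75, 5.26 and 3.33 in S03, S07 and S11 and 5.503, 3.29 and 3.605 in S04, S08 and S12, and none of its members passed the test.

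Across the 8828 genes with a mean of at least 10 CPM in the 6 tumor libraries, the pair most alike was S04 and S07, with a Pearson r of log2(CPM + 1) of 0.962 between libraries of opposite labels. The next was S03 and S08, also of opposite labels, at 0.9098. Within a label, r was 0.851, 0.881 and 0.772 among S03, S07 and S11, and 0.827, 0.652 and 0.584 among S04, S08 and S12. S12 was the least like the others, with r between 0.584 and 0.652. These are values across genes within pairs of libraries, which share the TMM scaling, and genes are not independent replicates.

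**Figure D2:**
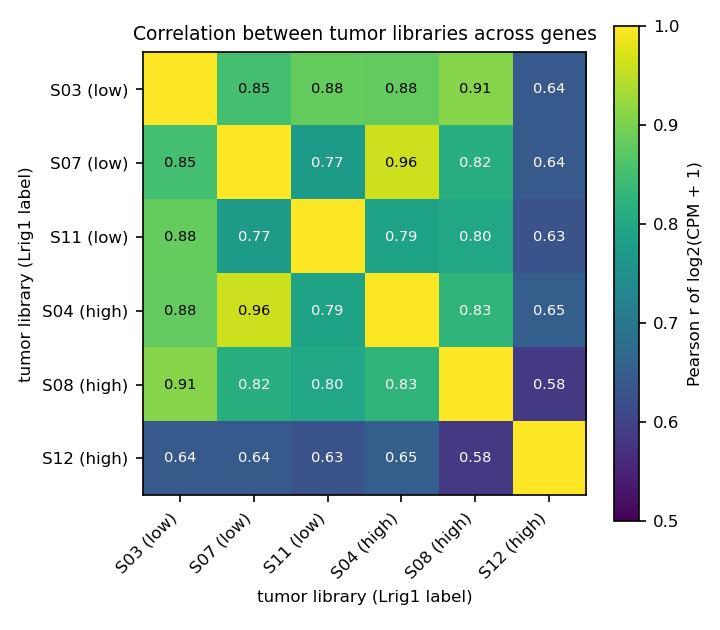
Pearson r of log2(CPM + 1) across 8828 genes for each pair of the 6 tumor libraries, with the Lrig1 label in parentheses. S04 with S07 (0.962) and S03 with S08 (0.9098) are the pairs most alike, and the row of S12 is lowest throughout.

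Over all genes, no gene was called between the groups as labelled. Of 13883 genes tested in edgeR, 0 were higher (0%) and 0 lower (0%) at an adjusted p under 0.05, and the smallest adjusted p was 0.655. At an unadjusted p under 0.05 there were 501 higher (3.61%) and 541 lower (3.9%). DESeq2 called 7 higher (0.0395% of the 17703 with an adjusted p) and 21 lower (0.119%), of which 4 and 21 had a mean under 10 CPM, and limma-voom with sample weights called 0 and 0, with 88 and 176 at an unadjusted p under 0.05. All 3 Lrig1-high libraries lay above all 3 Lrig1-low ones for 308 genes (2.22%) and below them for 727 (5.24%). Among the 8828 genes with a mean of at least 10 CPM the counts were 247 (2.8%) and 235 (2.66%), so that 492 of the 727 lower genes were under that level. S08 and S12, both labelled Lrig1-high, were the libraries with the fewest genes detected, and the part of this in the lower counts was not tested.

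The genes named next have the smallest unadjusted p among genes without overlap whose mean reached 10 CPM, and none passed the threshold (adjusted p = 0.655 for each). Tmem143, a transmembrane protein (gene 70209, chromosome 7, 45897069 to 45917413), was at 8.73, 6.15 and 7.11 CPM in S03, S07 and S11 and at 15.1, 21.2 and 27.6 CPM in S04, S08 and S12, a log2 fold change of 1.54 ± 0.31 (SE, unadjusted p = 0.000213). All 3 Lrig1-high libraries were at least 1.5 times the highest Lrig1-low library, and DESeq2 called it at an adjusted p of 0.00012. Cog5, a subunit of the Golgi tethering complex COG (gene 238123, chromosome 12, 31654869 to 31937630), was at 31.8, 35.1 and 29.1 CPM in S03, S07 and S11 and at 45.7, 66.2 and 95.5 CPM in S04, S08 and S12 (1.11 ± 0.24, adjusted p = 0.0254 in DESeq2). Mrpl1, a protein of the mitochondrial ribosome's large subunit, was at 21.4, 23.3 and 23.99 CPM in S03, S07 and S11 and at 35.5, 42.9 and 99.3 CPM in S04, S08 and S12 (1.37 ± 0.33). In Cog5 and Mrpl1, as in Tmem143, S12 was the highest and S04 the lowest of the Lrig1-high libraries. The log2 fold changes of Mplkip, Nipal1, a magnesium transporter, Exoc7, of the exocyst, and Ptp4a1, a tyrosine phosphatase, were 1.32 ± 0.38, 1.08 ± 0.31, 0.63 ± 0.19 and 1.48 ± 0.44. Exoc7 was at 47.03, 39.6 and 48.2 CPM in S03, S07 and S11 and at 54.5, 72.9 and 81.3 CPM in S04, S08 and S12. Ptp4a1 was at 12.7, 17.4 and 20.8 CPM in S03, S07 and S11 and at 20.9, 29.1 and 92.01 CPM in S04, S08 and S12, where S04 and S11 were level. Hipk1, a homeodomain-interacting kinase, had a log2 fold change of 3.89 ± 1.04 that came from 1 library, with 7943 CPM in S04 against 177 to 237 CPM in the other 5.

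On the lower side, Bcam, a receptor of laminin alpha 5 at the basal cell surface (gene 57278, chromosome 7, 19756138 to 19770532), was at 24.4, 9.26 and 63.5 CPM in S03, S07 and S11 and at 6.34, 6.11 and 5.51 CPM in S04, S08 and S12, a log2 fold change of -2.43 ± 0.64 (SE, unadjusted p = 0.00208). The Lrig1-high libraries lay close together, and S11 was the highest of the others. Nceh1, a cholesteryl ester hydrolase, was at 28.5, 18.3 and 48.8 CPM in S03, S07 and S11 and at 15.2, 13.5 and 4.97 CPM in S04, S08 and S12 (-1.500 ± 0.41). Bcl2l11, which encodes the pro-apoptotic protein Bim, was at 22.3, 20.3 and 48.95 CPM in S03, S07 and S11 and at 12.1, 13.4 and 15.6 CPM in S04, S08 and S12 (-1.15 ± 0.36). Plxna1, a semaphorin receptor, was at 71.04, 65.9 and 96.7 CPM in S03, S07 and S11 and at 53.6, 44.3 and 45.95 CPM in S04, S08 and S12 (-0.70 ± 0.21). Wdr81, of endosomal trafficking, was at 28.3, 26.3 and 25.7 CPM in S03, S07 and S11 and at 19.2, 15.1 and 12.2 CPM in S04, S08 and S12 (-0.78 ± 0.25). In Wdr81 and Plxna1 the groups were separated by small steps, and the largest of the Lrig1-low values was in S03 and S11 respectively. Zfp609, a zinc finger protein, was at 376, 101 and 108 CPM in S03, S07 and S11 and at 82.9, 64.9 and 80.1 CPM in S04, S08 and S12 (-1.36 ± 0.40), with S03 above the rest. Marchf5, a ubiquitin ligase of mitochondria, had a log2 fold change of -5.59 ± 1.42 that came from a single-library peak, 4973 CPM in S03 against 26.5 to 41.9 CPM elsewhere.

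**Figure D3:**
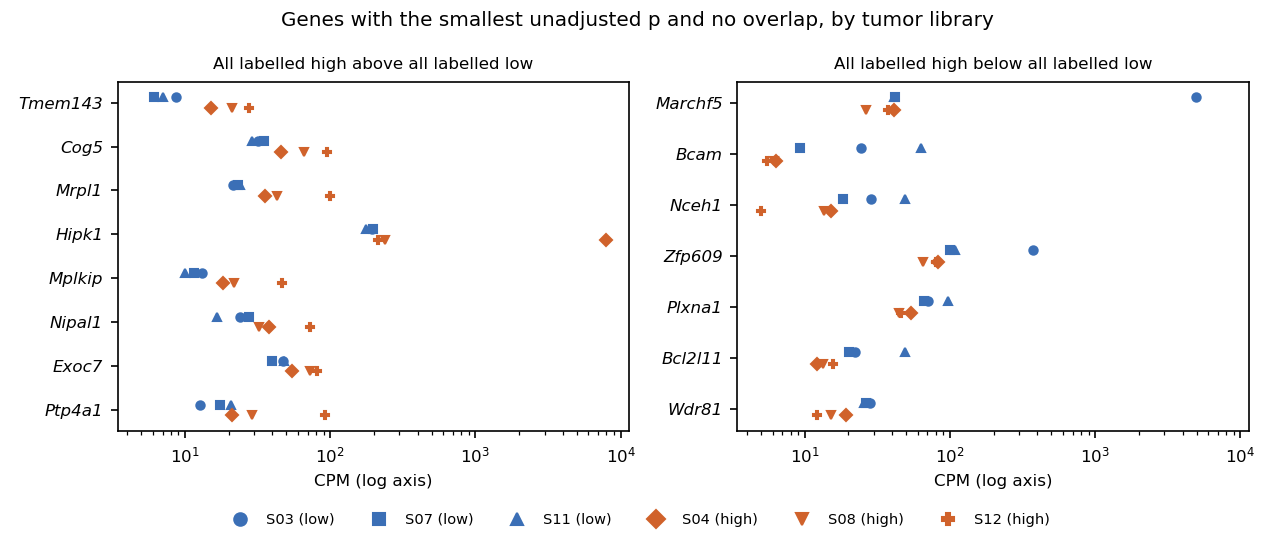
CPM on a log axis of 8 higher and 7 lower genes among those with the smallest unadjusted p among genes without overlap and with a mean of at least 10 CPM, with 1 point per tumor library. None passed the adjusted threshold, and all separate the groups because they were picked for no overlap. Hipk1 in S04 and Marchf5 in S03 are peaks of 1 library.

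Leaving out S04, the Lrig1-high library with the highest Lrig1, was the sole single-library omission that brought calls: 41 genes higher (0.284% of 14435) and 324 lower (2.24%). The Lrig1-high group then consisted of S08 and S12. Of the 324 genes, 271 had a mean under 10 CPM over the 6 libraries, and of the 41, 4. The called genes with the largest fold changes and at least 10 CPM were Klhl28, Tmem243, Lrif1, Zmym6, Fastkd3 and Ptp4a1 on the higher side, with log2 fold changes of 2.37 ± 0.77, 2.02 ± 0.56, 1.88 ± 0.57, 1.69 ± 0.57, 1.52 ± 0.48 and 1.48 ± 0.44 (SE) over all libraries. Klhl28, an adaptor of a ubiquitin ligase, was at 4.65, 4.08 and 4.29 CPM in S03, S07 and S11 and at 2.22, 12.7 and 52.5 CPM in S04, S08 and S12. S04 was its lowest library. Tmem243 was at 7.96, 5.86 and 6.22 CPM in S03, S07 and S11 and at 7.21, 22.2 and 51.8 CPM in S04, S08 and S12. On the lower side stood Bok, of the Bcl-2 family, Mkrn2, a ubiquitin ligase, Tnip2, an inhibitor of NF-kB signalling, Ddit4, an inhibitor of mTORC1, Mrps7, of the mitochondrial ribosome, and Atg4b, an autophagy protease. Bok was at 13.5, 15.6 and 34.4 CPM in S03, S07 and S11 and at 16.3, 0.09100 and 1.297 CPM in S04, S08 and S12 (-1.84 ± 1.02 over all libraries). Ddit4 was at 21.5, 18.97 and 43.9 CPM in S03, S07 and S11 and at 25.8, 3.74 and 1.95 CPM in S04, S08 and S12 (-1.41 ± 0.80). Mrps7 was at 23.6, 27.5 and 25.6 CPM in S03, S07 and S11 and at 29.6, 5.75 and 0.541 CPM in S04, S08 and S12 (-1.09 ± 0.78). In these 3 genes S04 had the level of the Lrig1-low libraries and S08 and S12 were low. Bok rested on 1 count in S08 and Mrps7 on 5 counts in S12. S08 and S12 were also the libraries with the fewest genes detected, and the part of this in the calls without S04 was not tested. Over all libraries Mkrn2, Tnip2 and Atg4b differed by -1.66 ± 0.84, -1.56 ± 1.02 and -1.28 ± 0.64. Without S07 and S08, edgeR called 0 genes in either direction, with 1065 higher and 996 lower at an unadjusted p under 0.05. Without S07, S08, S09 and S10, the last 2 being normal libraries that go against their labels as described below, 45 were higher (0.322% of 13982) and 3 lower (0.0215%). Slc12a2, Smoc2 and Ube2c were among the 45, and the 3 were Ctsl, Skil and Myzap. All 4 libraries were picked after their stem cell gene levels were seen, which narrows the spread the test uses, so these calls are no independent evidence. Without S07, S08 and S12, where S04 alone stands for Lrig1-high and is taken to vary like the other groups, 3 were higher (0.02% of 15009) and 0 lower (0%), with 382 and 581 at an unadjusted p under 0.05. The 3 were Mycbp2, Ddx39b and Hipk1, each a peak of S04: Mycbp2, a large ubiquitin ligase, was at 10522 CPM there and at 90.97 to 134 CPM elsewhere, and Ddx39b, an RNA helicase, at 8014 against 111 to 222 CPM. Over all 6 libraries their log2 fold changes were 4.97 ± 1.33 and 4.19 ± 1.14.

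Wnt target genes tended to lower values in the Lrig1-high libraries, with 19 negative and 3 positive log2 fold changes among 22 tested of 24. None passed the test, and the median was -0.85, against -0.06 over all genes, of which 45.7% were positive. It was below 0 under every alternative, from -1.34 to -0.17. The mean log2(CPM + 1) was 5.15, 4.76 and 6.36 in S03, S07 and S11 and 4.62, 4.35 and 5.198 in S04, S08 and S12, and S11 held the highest value of 16 of the 22 genes. Axin2, a scaffold of the destruction complex induced by the pathway it restrains, was at 168, 313 and 441 CPM in S03, S07 and S11 and at 245, 123 and 226 CPM in S04, S08 and S12 (log2 fold change -0.63 ± 0.57, SE). Sp5, a transcriptional repressor, was at 20.5, 13.1 and 70.7 CPM in S03, S07 and S11 and at 9.04, 14.3 and 25.3 CPM in S04, S08 and S12 (-1.099 ± 0.62). Dkk2, a secreted antagonist of the Wnt coreceptors, was at 12.4, 3.39 and 27.99 CPM in S03, S07 and S11 and at 1.43, 2.37 and 0.649 CPM in S04, S08 and S12. Dkk2 did not overlap between the groups (unadjusted p = 0.0436, adjusted p = 0.655). It was 1 of the 22 tested genes, where 5.24% of all genes were lower without overlap. Notum, a secreted enzyme that inactivates Wnt, and Nkd1, an inhibitor of Dishevelled, were named after their values were seen: Notum was at 83.6, 14.3 and 306 CPM in S03, S07 and S11 and at 18.8, 25.8 and 66.4 CPM in S04, S08 and S12. Nkd1 was at 217, 40.7 and 716 CPM in S03, S07 and S11 and at 48.9, 112 and 185 CPM in S04, S08 and S12. S11 was the highest in all 5 and S07 among the lowest in Sp5, Notum and Nkd1, so that these 3 were not high in the library labelled Lrig1-low with the most Olfm4. Without S11 the log2 fold change was -0.049 for Sp5 and -0.28 for Axin2.

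Basement membrane genes, the laminins, type IV collagens and nidogens on which epithelial cells rest, had the lowest median among the epithelial lists, -1.23 (-1.64 to -0.61 over the alternatives), with 18 negative log2 fold changes among 19 tested of 24. None passed the test, 3 were lower at an unadjusted p under 0.05 (3.9% of all genes) and 4 were lower without overlap (5.24% of all genes). The mean log2(CPM + 1) was 3.42, 2.62 and 4.22 in S03, S07 and S11 and 2.61, 2.73 and 2.13 in S04, S08 and S12, and S11 held the highest value of 16 genes. Lamc1, the laminin gamma 1 chain, was at 31.3, 22.1 and 82.6 CPM in S03, S07 and S11 and at 30.6, 17.6 and 11.2 CPM in S04, S08 and S12 (log2 fold change -1.19 ± 0.54, SE, unadjusted p = 0.0461). Col18a1, which yields endostatin, was at 15.6, 4.54 and 54.9 CPM in S03, S07 and S11 and at 3.96, 4.65 and 1.41 CPM in S04, S08 and S12 (-2.896 ± 0.97). Agrn, the heparan sulfate proteoglycan agrin, was at 147, 63.1 and 159.6 CPM in S03, S07 and S11 and at 77.1, 113 and 104 CPM in S04, S08 and S12 (-0.33 ± 0.31). In each, the library labelled Lrig1-low S07 lay among or below the Lrig1-high ones and S11 was highest. Without S11 the log2 fold changes of Lamc1, Col18a1 and Agrn were -0.43, -1.58 and -0.10. Nid1, nidogen, had 5, 0 and 19 counts in S03, S07 and S11 and 0 in S04, S08 and S12, too few to give a fold change. Endothelial cells also make these proteins, and 6 of 12 endothelial markers passed the filter, all 6 with negative log2 fold changes. Their summed level was 23.9 to 221 CPM in Lrig1-low and 10.1 to 56.7 CPM in Lrig1-high libraries. Cdh5, VE-cadherin, was at 31.97, 8.796 and 155 CPM in S03, S07 and S11 and at 2.62, 24.4 and 26.6 CPM in S04, S08 and S12. It was the highest of the markers in 5 libraries and took 53.04%, 69.97% and 94.2% of the sum in S03, S11 and S12, against 36.9% and 43.00% in S07 and S08. In S04 Vwf, von Willebrand factor, was the highest, at 3.09 CPM, while 4 of the markers were at 0 in all 6 and Pecam1 was at 1.11 CPM in S11. The part of endothelial RNA in the matrix result was not tested.

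The other matrix and adhesion lists also had more negative than positive values, and S11 was again the highest library for most glycoproteins and proteases. Of 12 tested matrix glycoproteins, 10 had negative log2 fold changes (median -1.13), of 15 matrix proteases and inhibitors 12 (median -0.54), and of 34 integrin and focal adhesion genes 25 (median -0.16). None of these genes passed the test, and the 3 medians stayed below 0 under every alternative, from -2.71 to -0.11, -1.18 to -0.10 and -0.42 to -0.04. Fn1, fibronectin, was at 115, 20.4 and 245 CPM in S03, S07 and S11 and at 28.2, 64.1 and 36.5 CPM in S04, S08 and S12. Thbs1, thrombospondin-1, was at 196, 94.7 and 508 CPM in S03, S07 and S11 and at 56.4, 203 and 162 CPM in S04, S08 and S12. Flna, the actin crosslinker filamin A, was at 87.03, 59.8 and 211 CPM in S03, S07 and S11 and at 40.9, 73.7 and 46.3 CPM in S04, S08 and S12, a log2 fold change of -1.15 ± 0.39 (SE, unadjusted p = 0.0104). Its groups overlapped because S08 was above S07. Ctsl, cathepsin L, was at 115, 33.4 and 328 CPM in S03, S07 and S11 and at 22.8, 53.9 and 31.1 CPM in S04, S08 and S12. Mmp14, a membrane metalloproteinase, was at 114, 90.4 and 286 CPM in S03, S07 and S11 and at 87.8, 79.8 and 122 CPM in S04, S08 and S12. Itga2, the integrin alpha 2 chain of collagen receptors, went the other way without overlap, at 49.3, 48.3 and 35.6 CPM in S03, S07 and S11 and at 54.5, 64.8 and 62.3 CPM in S04, S08 and S12. Of the 34 integrin and focal adhesion genes, 1 was higher without overlap (2.22% of all genes) and 3 were lower (5.24% of all genes). Of 12 fibroblast markers, 3 passed the filter, with summed levels of 2.100 to 33.9 CPM in Lrig1-low and 0.9000 to 13.3 CPM in Lrig1-high libraries. The 3 did not move together. Pdgfra, a receptor of fibroblasts, was at 5.42, 0.172 and 26.1 CPM in S03, S07 and S11 and at 0.476, 0 and 0.541 CPM in S04, S08 and S12. Pdgfrb, of pericytes and fibroblasts, was at 1.41, 1.15 and 0.444 CPM in S03, S07 and S11 and at 1.51, 0.7300 and 0 CPM in S04, S08 and S12. Acta2, smooth muscle actin, was at 1.55, 0.632 and 6.96 CPM in S03, S07 and S11 and at 0.555, 0.182 and 12.8 CPM in S04, S08 and S12. Pdgfra was highest in S11, Pdgfrb in S04 and Acta2 in S12. The part of fibroblast RNA in these values was not tested.

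The ErbB receptors that Lrig1 restrains bind ligands of the EGF family. Areg, the ligand amphiregulin, did not overlap between groups, at 6.27, 2.42 and 12.4 CPM in S03, S07 and S11 and at 1.74, 1.004 and 0.216 CPM in S04, S08 and S12, a log2 fold change of -2.81 ± 0.98 (SE, unadjusted p = 0.0128, adjusted p = 0.655). It was 1 of 11 tested genes of the list, where 5.24% of all genes were lower without overlap. Tgfa, transforming growth factor alpha, was at 20.98, 17.4 and 36.7 CPM in S03, S07 and S11 and at 10.9, 19.3 and 9.51 CPM in S04, S08 and S12 (-0.92 ± 0.36), with S08 above S07. Among the receptors Erbb3, which signals with Erbb2, was at 301, 261 and 141 CPM in S03, S07 and S11 and at 248, 274 and 169 CPM in S04, S08 and S12, without a division by label. Lrig2, a relative of Lrig1, was at 22.2, 20.01 and 20.1 CPM in S03, S07 and S11 and at 23.6, 21.5 and 61.4 CPM in S04, S08 and S12 (0.77 ± 0.34), with S12 alone above the rest. In all, 1 of 11 tested genes of the list was higher and 2 lower at an unadjusted p under 0.05 (3.61% and 3.9% of all genes), none after adjustment, and the median was -0.03. Of the 17 feedback genes that MAP kinase signalling induces, 12 had negative log2 fold changes (median -0.46, -1.15 to 0.04 over the alternatives). Dusp4, a phosphatase of ERK, was at 43.4, 17.02 and 144 CPM in S03, S07 and S11 and at 20.8, 14.7 and 21.5 CPM in S04, S08 and S12 (log2 fold change -1.84 ± 0.59, unadjusted p = 0.00787). Spry1, a Sprouty inhibitor of receptor tyrosine kinases, was at 14.4, 10.6 and 33.6 CPM in S03, S07 and S11 and at 8.72, 14.2 and 8.22 CPM in S04, S08 and S12 (-0.91 ± 0.44). S11 was the highest in Dusp4 and Spry1, as it was in 11 of the 17 genes, and without S11 their log2 fold changes were -0.67 and -0.27. Egr1, an immediate early transcription factor, was instead highest in S12, at 359 CPM against 49.9 to 125 CPM in the others.

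In the BMP and TGF-beta list, 13 of 16 tested genes had negative log2 fold changes, with a median of -0.43 (-1.24 to -0.08 over the alternatives) and 3 members lower without overlap (5.24% of all genes). Tgfb2, a ligand, had 64, 27 and 166 counts in S03, S07 and S11 and 7, 0 and 1 in S04, S08 and S12. Its adjusted p was 0.655 in edgeR and 0.0353 in DESeq2. Tgfbr2, the type II receptor, was at 58.3, 50.7 and 139.6 CPM in S03, S07 and S11 and at 49.5, 39.7 and 44.2 CPM in S04, S08 and S12 (log2 fold change -0.90 ± 0.38, SE), where S04 and S07 were level. Bambi, a pseudoreceptor that blocks the pathway, was at 5.42, 10.3 and 12.8 CPM in S03, S07 and S11 and at 5.23, 0.274 and 0.541 CPM in S04, S08 and S12 (-2.22 ± 0.98), and its adjusted p was 0.0377 without S04. The fetal and regenerative genes, expressed in fetal and in healing epithelium, were negative in 11 of 13 (median -1.02, -3.03 to -0.17 over the alternatives), and the YAP and TAZ targets in 12 of 15 (median -0.73, -1.37 to -0.26). No gene of the 3 lists passed the test in edgeR over all libraries. S100a6, a calcium-binding protein of the fetal list, was a single-library peak, at 8922 CPM in S03 and 25.1 to 217 CPM elsewhere. Anxa3, an annexin, was at 9.01, 7.53 and 11.1 CPM in S03, S07 and S11 and at 3.57, 3.56 and 0 CPM in S04, S08 and S12. Ajuba, a regulator of the Hippo kinases, was at 10.4, 7.24 and 27.5 CPM in S03, S07 and S11 and at 6.18, 11.6 and 0.973 CPM in S04, S08 and S12. Tead1, the DNA-binding partner of YAP, was at 63.4, 67.7 and 101 CPM in S03, S07 and S11 and at 60.1, 76.5 and 93.1 CPM in S04, S08 and S12 with no division by label. The mean log2(CPM + 1) of the fetal list was 4.01, 2.24 and 4.67 in S03, S07 and S11 and 2.35, 3.403 and 3.101 in S04, S08 and S12, highest in S11 and S03 and lowest in S07 and S04.

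Among the differentiated cells, the secretory types varied widely between libraries of the same label. Paneth cell genes, which encode antimicrobial products of the crypt base, had a mean log2(CPM + 1) of 3.13, 6.24 and 2.65 in S03, S07 and S11 and 5.09, 2.902 and 4.88 in S04, S08 and S12. Lyz1, Paneth lysozyme, was at 122, 1541 and 939 CPM in S03, S07 and S11 and at 817, 81.5 and 1053 CPM in S04, S08 and S12. Defa24, an alpha-defensin with near-identical copies and so uncertain, named after its values were seen, was at 33.9, 1162 and 2.44 CPM in S03, S07 and S11 and at 515, 32.3 and 401 CPM in S04, S08 and S12. S07, S04 and S12 were high in Defa24, while Lyz1 was high in S11 as well. None of the 14 tested genes passed, and their median of -0.35 ranged from -0.90 to 3.07 over the alternatives, with 2.85 without S07 and S08.

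Tuft cell genes, of the chemosensory cells, went the other way, with a mean of 4.26, 2.42 and 4.12 in S03, S07 and S11 and 1.904, 5.71 and 1.57 in S04, S08 and S12. Dclk1, a kinase that marks tuft cells, was at 119, 15.1 and 86.7 CPM in S03, S07 and S11 and at 11.5, 375 and 34.3 CPM in S04, S08 and S12. Trpm5, their taste-type cation channel, was at 72.4, 16.1 and 47.7 CPM in S03, S07 and S11 and at 10.3, 324 and 0.324 CPM in S04, S08 and S12. Pou2f3, their master transcription factor, was at 10.9, 5.46 and 14.7 CPM in S03, S07 and S11 and at 2.93, 36.3 and 13.2 CPM in S04, S08 and S12. S08 was the highest in 11 of 12 genes, S03 and S11 followed as lists, and S04, S07 and S12 were low. None passed the test, and the median was 0.73, but -3.55 without S07 and S08 and -1.15 in limma-voom with sample weights. Ptprc, at 46.1 CPM in S08, was highest in the same library as these genes. The whole leukocyte list had summed levels of 7.300 to 18.4 CPM in Lrig1-low and 3.500 to 57.2 CPM in Lrig1-high libraries, with 3 of 14 markers at 0 in all 6. Ptprc made up 80.5% of the sum in S08, where Cd68 of macrophages was at 0 and the myeloid lysozyme gene Lyz2 at 0.09100 CPM. The leukocyte marker Itgam was at 11.04 CPM in S08, its highest level in the 6 libraries, against 9.49 CPM in S07 and 0 in S12. Of the 4 tested markers, Ptprc had a positive log2 fold change, and Itgam, Cd68 and Lyz2 had negative ones. The part of leukocyte RNA in the tuft result was not tested.

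Enteroendocrine genes, of the hormone-secreting cells, had a mean of 4.403, 4.04 and 4.22 in S03, S07 and S11 and 3.002, 4.995 and 2.69 in S04, S08 and S12. Chgb, the granin secretogranin-1, was at 341, 1022 and 298 CPM in S03, S07 and S11 and at 469, 325 and 54.2 CPM in S04, S08 and S12 (log2 fold change -0.97 ± 0.64, SE). Pax6, a transcription factor of these cells, was lower without overlap, at 3.87, 6.21 and 4.89 CPM in S03, S07 and S11 and at 0.238, 3.38 and 0 CPM in S04, S08 and S12 (-2.04 ± 1.08, unadjusted p = 0.0805). This was 1 member of 19, near the 5.24% of all genes lower without overlap. Tac1, the substance P precursor, was at 5.42, 10.2 and 3.33 CPM in S03, S07 and S11 and at 6.501, 9.12 and 17.1 CPM in S04, S08 and S12 (0.78 ± 0.49). Sst, somatostatin, named after its values were seen, was at 87.8, 10.9 and 88.1 CPM in S03, S07 and S11 and at 0.396, 293 and 3.35 CPM in S04, S08 and S12, high in S03, S08 and S11 as the tuft genes were, whereas Chgb was highest in S07. The list's median was -0.06 (-1.69 to 0.37 over the alternatives), and none of its members passed the test.

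Goblet cell genes, of the mucus-secreting cells, were the most evenly positive epithelial list, with 13 of 14 log2 fold changes above 0 and a median of 0.31 (-0.08 to 1.01 over the alternatives), none past the test. The mean log2(CPM + 1) was 7.14, 7.996 and 4.77 in S03, S07 and S11 and 7.32, 7.81 and 6.85 in S04, S08 and S12. Muc2, the main gel-forming mucin, was at 1257, 1556 and 173 CPM in S03, S07 and S11 and at 1197, 2073 and 1349.5 CPM in S04, S08 and S12 (0.63 ± 0.71). Sytl2, a synaptotagmin-like protein of secretory granules, was at 79.2, 76.002 and 22.7 CPM in S03, S07 and S11 and at 62.3, 105 and 121 CPM in S04, S08 and S12 (0.70 ± 0.51). S11 held the lowest value in 13 of 14 genes, and the other 5 libraries were mixed between the labels. The 20 small intestinal enterocyte genes were split, 10 positive and 10 negative, with a median of -0.06, and S03 held the highest value of 14 of them. Apoa1, an apolipoprotein, was at 555, 83.2 and 141 CPM in S03, S07 and S11 and at 182, 175 and 54.2 CPM in S04, S08 and S12.

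**Figure D4:**
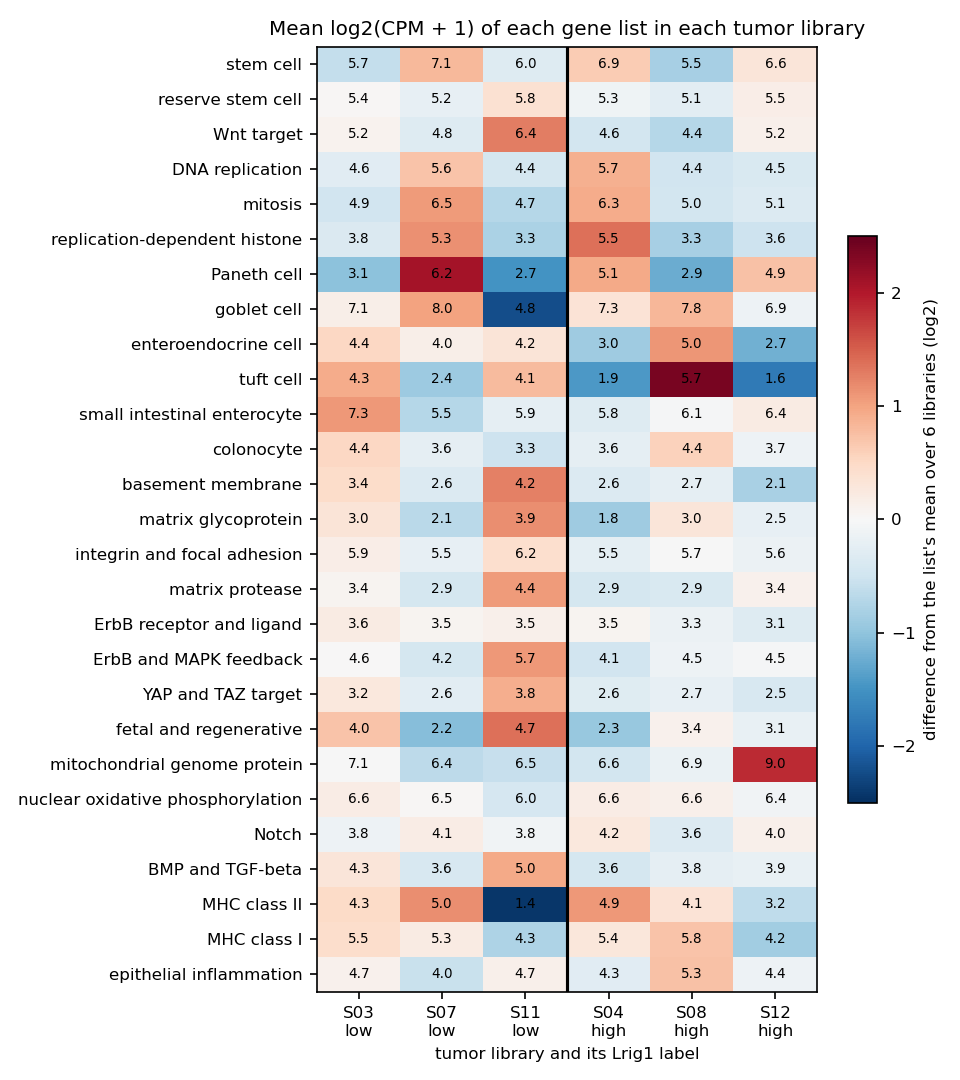
Mean log2(CPM + 1) of each epithelial gene list (number in the cell) in the 6 tumor libraries, with the Lrig1 label under each library and color for the difference from the list's mean over the 6. S04 and S07, of opposite labels, are the highest in stem, replication, mitosis, histone and Paneth genes, with S12 near S04 in Paneth genes. S08 is the highest in tuft genes, followed by S03 and S11, which are near each other. S11 is high in Wnt target and matrix genes and S12 in mitochondrial genes.

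Genes of the mitochondrial genome were the list with the largest positive median, 1.46, and 7 of 13 were higher at an unadjusted p under 0.05 (3.61% of all genes), with none past the adjusted threshold. S12 carried this. ND5, a subunit of complex I, was at 3949, 2166 and 2371 CPM in S03, S07 and S11 and at 3073, 3597 and 24270.2 CPM in S04, S08 and S12 (log2 fold change 1.87 ± 0.71, SE). ND2 of the same complex was at 1043, 707 and 601 CPM in S03, S07 and S11 and at 806, 1187 and 5849 CPM in S04, S08 and S12 (1.74 ± 0.62). S12 was the highest in all 13 genes, S04 and S08 lay within or near the Lrig1-low range, and the median was 0.24 without S12. The 32 nuclear genes of oxidative phosphorylation had 23 positive log2 fold changes and a median of 0.08 (0.01 to 0.28 over the alternatives), and 4 were higher at an unadjusted p under 0.05 (3.61% of all genes). Atp5c1, the gamma subunit of ATP synthase, was higher without overlap, at 214, 179.5 and 155 CPM in S03, S07 and S11 and at 232, 246 and 304 CPM in S04, S08 and S12 (0.51 ± 0.21, unadjusted p = 0.0285, adjusted p = 0.655). This was 1 member of 32, where 2.22% of all genes were higher without overlap. Cox5a and Cox6a1, of cytochrome c oxidase, were at 50.2, 69.8 and 132 CPM and 71.9, 94.5 and 106 CPM in the Lrig1-high libraries S04, S08 and S12. S08 and S12 exceeded every Lrig1-low library in Atp5c1, Cox5a and Cox6a1, and S04 did so in Atp5c1. The list as a whole overlapped between the groups. Its mean log2(CPM + 1) was 6.63, 6.475 and 6.045 in S03, S07 and S11 and 6.64, 6.57 and 6.36 in S04, S08 and S12. S12 held the highest value of 11 of the 32 genes and the lowest of 14. Atp5b, the member with the highest mean, was at 793, 809 and 604 CPM in S03, S07 and S11 and at 3123, 878 and 512 CPM in S04, S08 and S12.

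The remaining epithelial lists had no member past the test. MHC class II genes, which present antigen and are also expressed by intestinal stem cells, had a mean log2(CPM + 1) of 4.28, 4.98 and 1.38 in S03, S07 and S11 and 4.898, 4.14 and 3.17 in S04, S08 and S12, and 5 of 7 were lowest in S11. Cd74, the class II chaperone, was at 150.3, 312 and 10.7 CPM in S03, S07 and S11 and at 223, 189 and 56.9 CPM in S04, S08 and S12. MHC class I genes were highest in S08 for 7 of 9, and B2m, their common light chain, was at 158, 185 and 45.9 CPM in S03, S07 and S11 and at 152, 227 and 233 CPM in S04, S08 and S12. Notch genes had a median of -0.01. Hes1, the Notch target that represses secretory fate, was at 39.6, 48.8 and 71.6 CPM in S03, S07 and S11 and at 100.4, 30.7 and 88.01 CPM in S04, S08 and S12. Nrarp, a feedback inhibitor of Notch, was at 9.86, 25.8 and 7.18 CPM in S03, S07 and S11 and at 34.9, 9.31 and 28.2 CPM in S04, S08 and S12, so that S04 and S12 were high in both and S08 low. The reserve stem cell list had 4 positive and 4 negative log2 fold changes, a median of 0.06, and Bmi1, of the Polycomb complex, was at 31.3, 27.4 and 51.6 CPM in S03, S07 and S11 and at 40.6, 28.4 and 72.8 CPM in S04, S08 and S12. In the epithelial inflammation list (median 0.14), Ccl28, a chemokine for IgA-secreting plasma cells, was at 34.1, 54.7 and 11.5 CPM in S03, S07 and S11 and at 70.9, 32.8 and 125 CPM in S04, S08 and S12 (unadjusted p = 0.0376, adjusted p = 0.655). The 13 colonocyte genes had a median of 0.18, and Krt20, a keratin of mature surface cells, was at 466, 81.6 and 138 CPM in S03, S07 and S11 and at 117, 338 and 87.6 CPM in S04, S08 and S12. Enteric neuron and glia markers summed to 5.200 to 14.5 CPM over the 6 libraries.

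Whether high and low cells differed by another amount in tumors than in normal epithelium was tested as an interaction. The normal libraries did not all follow their labels either. In them Lrig1 was at 51.4, 45.3, 85.5 and 53.97 CPM in the Lrig1-low libraries S01, S05, S09 and S13 and at 126, 138, 36.4 and 146 CPM in the Lrig1-high libraries S02, S06, S10 and S14. Slc12a2 was at 328, 218, 1188 and 238 CPM in the Lrig1-low libraries S01, S05, S09 and S13 and at 2187, 2190.1, 203 and 1833 CPM in the Lrig1-high libraries S02, S06, S10 and S14. The library labelled Lrig1-high S10 was the lowest of the 8 in both genes, and the library labelled Lrig1-low S09 lay above it and above the other Lrig1-low libraries. In edgeR 0 of 13883 genes were called (0%), with 407 higher and 592 lower at an unadjusted p under 0.05, DESeq2 called 5, and limma-voom 0. For Lrig1 the log2 fold change of high over low was 0.92 ± 0.47 in normal epithelium and 0.22 ± 0.54 in tumors (SE), a difference of -0.70 ± 0.71 (adjusted p = 0.796). For Slc12a2 the difference was -0.97 ± 1.25, for Smoc2 -0.97 ± 1.03 and for Ube2c -0.35 ± 1.03 (SE, adjusted p = 0.831, 0.805 and 0.927). None of these differences passed the test. Without S09 and S10 the fold change of Lrig1 in normal epithelium was 1.45 ± 0.45 and the difference -1.25 ± 0.62 (SE, adjusted p = 0.425). That of Slc12a2 was then -2.28 ± 0.99 (adjusted p = 0.372). In that fit 1 of 13673 genes was called (0.00731%), Ephb3, whose log2 fold change of high over low was lower in tumors than in normal epithelium. Without S07, S08, S09 and S10 the difference was -0.21 ± 0.39 for Lrig1, -0.63 ± 0.45 for Slc12a2, -0.39 ± 0.35 for Smoc2 and 0.81 ± 0.37 for Ube2c. In that fit 0 genes were called, with 843 higher and 704 lower at an unadjusted p under 0.05. Without S07 and S08 alone the sign turned, with differences of 0.28 ± 0.68 for Lrig1 and 0.615 ± 1.195 for Slc12a2 (SE, adjusted p = 0.891 and 0.863). Those of Smoc2 and Ube2c were then 0.53 ± 0.90 and 1.53 ± 0.80 (adjusted p = 0.84 and 0.568). These omissions were chosen after the levels were seen. The median of the Wnt target list was 1.31 in normal epithelium and -0.85 in tumors, and that of the basement membrane list 0.65 and -1.23. Those of the stem cell list were 1.44 and 0.03. Without S09 and S10 the normal medians were 1.86, 0.11 and 2.47 for the 3 lists. The differences between these medians were not tested.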

How the data were processed

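The authors deposited raw counts of reads over the exons of each mm10 RefSeq gene, from featureCounts 1.5.3, per the file headers. The submitters' processing notes also name Trimmomatic, HISAT2 and Subread. Libraries were made from total RNA with a stranded kit for small inputs and sequenced as paired ends, per the labels' protocols. Gene symbols were found for 25275 of 27179 identifiers in the RefSeq table and for 18 in GENCODE M21, and counts without a symbol were kept.

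Counts of 14 libraries (all but S15) were fitted together in edgeR 4.0.16 (R 4.3.3) with TMM scaling, filterByExpr, a coefficient for each group and quasi-likelihood F tests. The p-values of 13883 genes were adjusted by Benjamini-Hochberg, and 0.05 was the threshold. The SE of a log2 fold change was derived from it and F (absolute change over root F). The interaction came from the same fit. DESeq2 1.42.0 and limma 3.58.1 were alternatives, and single genes were tested with exact permutations over libraries. The procedure was tested on simulated data. These held no library against its label and no single-library peak, so they do not show how the procedure fares with either. A list's level is its members' mean log2(CPM + 1), with members under the filter included. Named genes are Lrig1, Slc12a2, Smoc2 and Ube2c, 8 per direction by smallest unadjusted p without overlap and with a mean of at least 10 CPM, per list up to 3 members by unadjusted p and the member of highest mean, and up to 6 per direction called when libraries were left out, with predicted, mitochondrial, ribosomal protein and immune receptor genes passed over except within lists. Some genes that these rules select are not reported here. Epcam, Pecam1, Ptprc, Car1, Aqp8, Hoxb13, Hoxd13, Gata4, Itgam, Skil and Myzap were named after their values were seen. The libraries compared and the 31 gene lists were chosen with earlier results of these data known. Neither animals nor cultures are named in the labels, so p-values measure only the spread between these libraries, which may be technical.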

Additional observations from a re-analysis of the deposited data

How the results depend on the processing

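Each result was recomputed under 26 alternatives, of which the omission of S09 and S10 and that of S07, S08, S09 and S10 were chosen after seeing the data. The counts of 0 genes higher, 0 lower and 0 for the interaction became 7, 21 and 5 in DESeq2, and 3 higher and 3 for the interaction without S07, S08 and S12. Without S07, S08, S09 and S10 they were 45, 3 and 0, and without S09 and S10 they were 0, 0 and 1. They were 0 with DESeq2 size factors in edgeR, without a filter, with at least 1 CPM in 3 libraries, with limma-voom, with S15 included, without S07 and S08, and, for the tumor comparison, in the 6 tumor libraries alone. Leaving out 1 library at a time gave 0 to 41 higher, 0 to 324 lower and 0 to 157 for the interaction, with values above 0 without S04 only. The labels give each library its own number and do not say which share an animal; a fit with runs of 4 consecutive numbers as a replicate block called 0, 0 and 0. The log2 fold change of Lrig1 went from -0.31 (without S04) to 0.94 with 1 library left out, and that of Smoc2 from -0.10 to 1.31. Of the 59 genes other than Lrig1 with a printed log2 fold change, 50 kept their direction under every alternative that gave a value; 5 (Hipk1, Marchf5, Ddx39b, Mycbp2 and Tnip2) had none in DESeq2. With 1 tumor library left out, 49 of the 59 moved by over 1.5 times or reversed, 24 of them without S12, 21 without S11 and 16 without S04. Reversed log2 fold changes without S07, S08 and S12 were 0.56 for Chgb, -0.022 for ND2, -0.033 for ND5, -0.999 for Klhl28, -0.126 for Zmym6, 0.195 for Atg4b and 0.278 for Mrps7. Mycbp2 was at -0.035 to 5.59 with 1 library left out, the former without S04. With S15 the median log2 fold change of all genes was 0.01 in place of -0.06. The cause of these changes was not tested. With 3 libraries a group, of which S07 and S08 go against their labels in Lrig1, and with few detected genes in S08 and S12, a gene without a call is not shown to be alike in the 2 groups.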
